A study of Mus musculus with 14 samples.

Results

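The comparison of HCN4F-Sham with WT-Sham hearts measured how left ventricular gene expression differed between the genotypes in mice that had not been exposed to pressure overload. It was defined by genotype and surgery alone, as the 4 HCN4F-Sham libraries against the 4 WT-Sham libraries, which are 8 of the 14 RNA-Seq libraries used. HCN4F mice carry a tyrosine-to-phenylalanine substitution encoded in exon 4 of their own Hcn4 gene, a knock-in at the endogenous gene and not a transgene. WT mice carry the unmodified gene. All 8 animals were males that underwent Sham surgery, without transverse aortic constriction (TAC), at 10 to 12 weeks of age, and left ventricles were taken 5 weeks later. The other 6 libraries, 4 HCN4F-TAC and 2 WT-TAC, came from mice whose aortic arch was tied against a 27-gauge needle, and they enter here as a second set of animals. Whether the knock-in allele was carried on 1 or both chromosomes, the strain background, whether WT mice were littermates and the time of day of tissue collection are not given in the sources used here. The study's methods call the samples of a group biological replicates.

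HCN4 is the principal channel of the pacemaker current in the sinoatrial node, where it opens on hyperpolarization and is pushed towards opening by cAMP, so that it helps to set the intrinsic heart rate. It is a marker of pacemaker and conduction cells and is weakly expressed in working ventricular muscle. The knock-in sits on chromosome 9, and genes near a targeted allele are inherited with it, so genes of chromosome 9 were described apart from those of the other chromosomes. The other groups on which the comparison turns are immediate early genes, transcription factors and regulators that are transcribed within minutes of a stimulus, and the targets of heat shock factor, chaperones that refold proteins.

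The reference sequence around the substituted codon is shown because it holds the designed difference between the groups. It lies in the coding part of exon 4 of Hcn4 at chr9:58855702-58855743 on the plus strand of GRCm38, 5′ to 3′, and capitals mark the tyrosine codon at 58855732 to 58855734.
Hcn4: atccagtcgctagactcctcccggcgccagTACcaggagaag
Counts per gene do not read this codon and therefore could not check the genotype labels. Hcn4 transcript itself (chr9:58823412-58863175) stood at 13, 9.27, 6.36 and 7.67 CPM (reads of the gene scaled to the depth of the library by TMM) in HCN4F-Sham 1 to 4 and at 10.6, 9.83, 9.29 and 8.07 CPM in WT-Sham 1 to 4. The groups overlapped and the log2 fold change of HCN4F over WT was −0.06 (SE 0.26, adjusted p = 0.934, edgeR quasi-likelihood test with Benjamini-Hochberg adjustment, as for every adjusted p below). Its sign rested on single libraries, since it was 0.08 without HCN4F-Sham 3 and 0.01 without HCN4F-Sham 4. Hcn2, the other HCN channel of ventricular muscle, had a log2 fold change of −0.11 (adjusted p = 0.772). The 7 markers of pacemaker and conduction cells summed to 28.67 to 39.03 CPM in HCN4F-Sham and 27.35 to 38.58 CPM in WT-Sham, and Isl1 had no count in any Sham library.

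The 8 Sham libraries held 22309914 to 33368926 counts, and mitochondrial genes took 17.14 to 23.08% of them. Markers of ventricular cardiomyocytes summed to 75260 to 85240 CPM in HCN4F-Sham and 86800 to 89290 CPM in WT-Sham, against 7.039 to 11.5 and 6.964 to 7.906 CPM for markers of atrial cardiomyocytes, so the libraries carried the profile of ventricular muscle. Because the tissue is bulk, fewer cells of a type and less RNA per cell cannot be told apart in any value below.

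The HCN4F-Sham libraries were not alike among themselves in the genes of the circadian clock. Arntl (Bmal1), the activating arm of the clock, stood at 14.9, 5.11, 1.77 and 1.54 CPM in HCN4F-Sham 1 to 4 and at 13.6, 15.2, 15.6 and 12.8 CPM in WT-Sham 1 to 4. Npas2, which pairs with it, stood at 5.87, 1.92, 1.16 and 1.39 CPM in HCN4F-Sham and 4.25, 5.91, 3.94 and 4.38 CPM in WT-Sham. Dbp, an output gene of the clock, stood at 10.5, 99.3, 147 and 107 CPM in HCN4F-Sham and 32.5, 14.3, 21.8 and 24.9 CPM in WT-Sham. In each case HCN4F-Sham 2, 3 and 4 lay outside the range of the WT-Sham libraries, and HCN4F-Sham 1 lay inside it or on the other side. The repressor gene Per3 had the same layout, with 3.24, 16.4, 23.3 and 27.7 CPM in HCN4F-Sham and 7.54, 5.69, 5.81 and 7.94 CPM in WT-Sham. Of the 21 clock genes measured, 15 had HCN4F-Sham 2, 3 and 4 beyond the WT-Sham range on the same side, whereas HCN4F-Sham 1 was above that range in 2 and below it in 11. The median of the 21 log2 fold changes was 0.62. The part of this split in the results below was not tested.

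**Figure D1:**
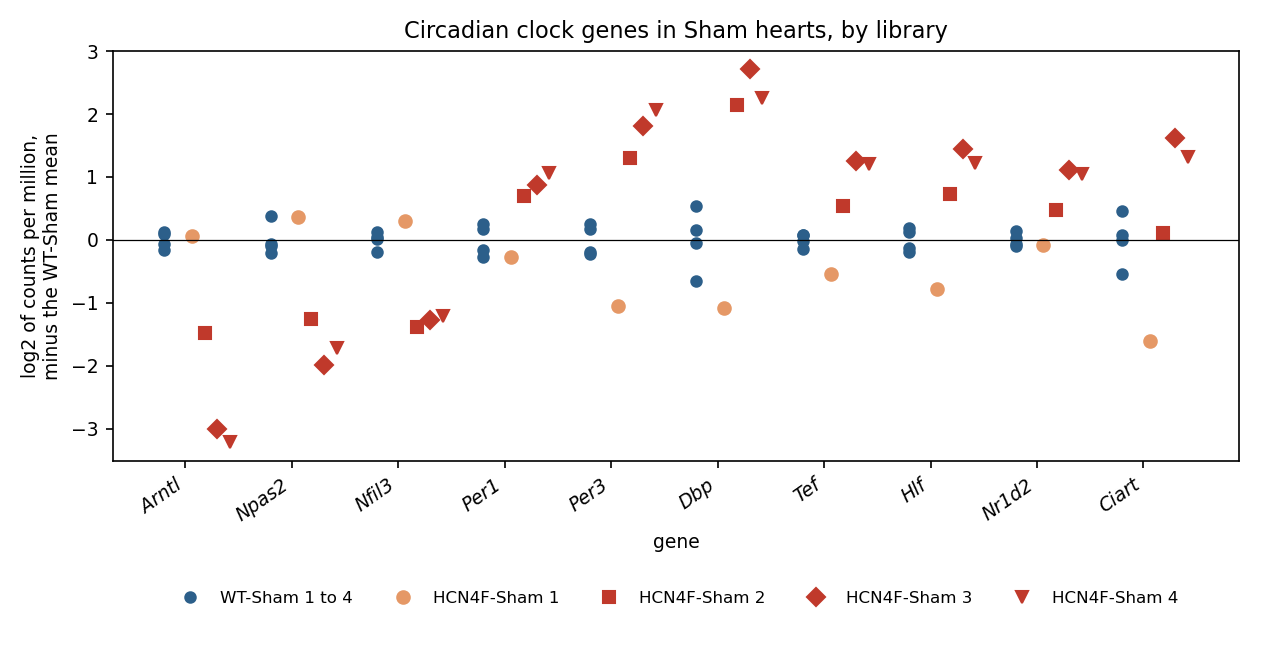
Log2 of CPM minus the WT-Sham mean (y axis) for 10 clock genes (x axis), 1 point per library, with blue circles for WT-Sham 1 to 4, a pale circle for HCN4F-Sham 1 and red symbols for HCN4F-Sham 2 to 4. HCN4F-Sham 2, 3 and 4 lie below the WT-Sham points for Arntl, Npas2 and Nfil3 and above them for Per1, Per3, Dbp, Tef, Hlf and Nr1d2, whereas HCN4F-Sham 1 lies within, near or on the other side of the WT-Sham points.

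Of 15292 genes tested, 32 (0.209%) differed between HCN4F-Sham and WT-Sham with an adjusted p under 0.05 and a log2 fold change beyond 1 in either direction, which is the criterion for a called gene. Of these, 13 (0.085%) were higher and 19 (0.124%) were lower in HCN4F-Sham. The adjusted p alone was passed by 72 genes (0.471%), 35 higher and 37 lower. In each of these 72 genes the 4 values of one group lay wholly above or below the 4 of the other, a layout that 8.56% of all tested genes had. The median log2 fold change of all tested genes was 0.00. The smallest change among called genes was Tcf15 with 1.00, and the largest among genes that passed the adjusted p alone was Plk2 with 0.92. The count of calls depended on single libraries, being 92 without HCN4F-Sham 1, 16, 15 and 18 without HCN4F-Sham 2, 3 and 4, and 24, 11, 15 and 15 without WT-Sham 1, 2, 3 and 4.

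**Figure D2:**
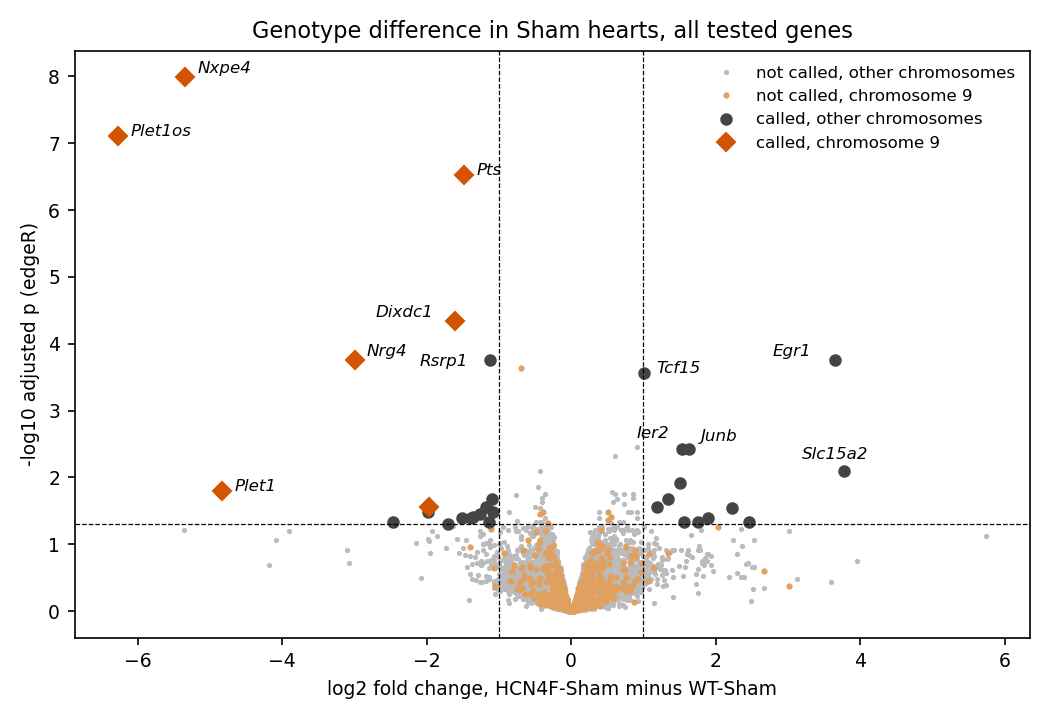
Log2 fold change of HCN4F-Sham minus WT-Sham (x axis) against −log10 of the edgeR adjusted p (y axis), 1 point for each of the 15292 genes tested, with chromosome 9 genes in orange, called genes as large symbols and dashed lines at the thresholds. The 7 called chromosome 9 genes all lie on the left, and the 25 called genes of other chromosomes lie on both sides.

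Chromosome 9 held 7 of the 32 called genes among its 877 tested genes (0.798%), and the other chromosomes held 25 among 14415 (0.173%). All 7 were lower in HCN4F-Sham. AI593442, of the same chromosome, stood higher at 2.33, 2.15, 7.48 and 1.78 CPM in HCN4F-Sham 1 to 4 and 1.11, 0.58, 0.765 and 0.882 CPM in WT-Sham 1 to 4, without overlap (log2 fold change 2.04), and missed the threshold in edgeR (adjusted p = 0.0542) but passed in DESeq2 (adjusted p = 4.30e-05). With the adjusted p alone the counts were 14 on chromosome 9 (1.6%), 3 higher and 11 lower, and 58 elsewhere (0.402%), and the next highest share past the adjusted p was 0.852% on chromosome 17. The share of genes whose groups did not overlap was 9.81% on chromosome 9 and 8.48% elsewhere.

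The 3 largest log2 fold changes among called genes belonged to chromosome 9 genes with few or no counts in HCN4F hearts. Nxpe4, a gene of the neurexophilin and PC-esterase family at chr9:48162023-48400025 on the plus strand, stood at 0.188, 0.228, 0.181 and 0.151 CPM in HCN4F-Sham 1 to 4 and at 8.13, 7.83, 6.65 and 7.97 CPM in WT-Sham 1 to 4. No values overlapped, with a log2 fold change of −5.35 (SE 0.28, adjusted p = 1.04e-08), and the summed counts of 20 and 854 gave a ratio of WT to HCN4F of 41.9 (95% exact interval 26.95 to 68.9, counting error only). Plet1os, an antisense transcript at chr9:50488795-50507823 on the minus strand, stood at 0.0376, 0.228, 0.0723 and 0 CPM in HCN4F-Sham and 6.21, 5.4, 6.61 and 5.95 CPM in WT-Sham, with a log2 fold change of −6.27 (adjusted p = 7.73e-08) and a ratio of 82.4 (95% exact interval 41.6 to 191.6). Plet1, the protein-coding gene on the opposite strand, which encodes a cell surface protein first described in placenta, had 1 count over the 4 HCN4F-Sham libraries and 43 over the WT-Sham libraries, a ratio of 42.2 (95% exact interval 7.18 to 1704, adjusted p = 0.0158). Whether strand was used in counting is not given in the sources used here, so reads of Plet1 and Plet1os cannot be told apart. The same holds for Nxpe2, a relative of Nxpe4 that lies within its span on the other strand at chr9:48318006-48353454 and stood at 0.0753, 0.685, 0.398 and 0.604 CPM in HCN4F-Sham and 2.44, 1.67, 1.34 and 1.5 CPM in WT-Sham (log2 fold change −1.97, adjusted p = 0.0275).

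A further 3 genes of chromosome 9 fell. Pts, which encodes 6-pyruvoyltetrahydropterin synthase, an enzyme of tetrahydrobiopterin synthesis, stood at 7.19, 6.94, 5.68 and 6.1 CPM in HCN4F-Sham and 16.6, 18.2, 18.5 and 19 CPM in WT-Sham. The groups did not overlap and the log2 fold change was −1.48 (SE 0.10, adjusted p = 2.98e-07). Dixdc1, a DIX domain protein of the Wnt pathway, stood at 1.62, 1.87, 2.31 and 2.45 CPM in HCN4F-Sham and 6.47, 6.53, 5.31 and 7.06 CPM in WT-Sham, a log2 fold change of −1.61 (SE 0.16, adjusted p = 4.58e-05). Nrg4, a ligand of the receptor ErbB4, stood at 0.188, 0.274, 0.108 and 0.272 CPM in HCN4F-Sham and 1.55, 1.89, 1.91 and 1.5 CPM in WT-Sham, a log2 fold change of −2.997 (SE 0.33, adjusted p = 1.75e-04), again without overlap. These HCN4F-Sham values were a few counts per library, and that of HCN4F-Sham 3 was that of 3 counts. Of the other ligands and receptors of the ErbB family, 11 genes with Nrg4 among them, no other passed the adjusted p in edgeR. Of the 11, 5 had an unadjusted p under 0.05 (against 15.2% of all genes), 3 lay wholly below WT-Sham (against 4.67%) and the median log2 fold change was 0.05, Nrg4 included. Pts lies at chr9:50521617-50528724, Dixdc1 at chr9:50662752-50739517 and Nrg4 at chr9:55220222-55326844, and the calls of these 3, Nxpe4 and Plet1os were kept whichever library was left out. Nxpe2 lost its call in 5 of 8 such fits and Plet1 in 1 of 7, the eighth having too few counts for a test. With HCN4F-Sham 1 as the sole HCN4F-Sham library, a choice made after seeing the data that assumes it varies like the other groups, 5 of the 7 were called, Nxpe4, Plet1os, Nxpe2, Pts and Dixdc1.

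These genes were not spread evenly along the chromosome. Between 12 and 6 megabases (Mb) before Hcn4, 8 of 43 tested genes (18.6%) passed the adjusted p and 6 were called, Nxpe4, Nxpe2, Plet1, Plet1os, Pts and Dixdc1. In the 6 Mb before Hcn4 it was 2 of 71 genes, Nrg4 and Ppcdc, and in the 6 Mb after it 1 of 45, Pkm. Between 20 and 12 Mb before Hcn4 it was 2 of 73 and between 30 and 20 Mb 1 of 48. None passed in the 134 genes farther before it, nor in the windows more than 6 Mb after it, which held 49, 52, 40 and 322 genes. Within the stretch of 43 genes, the groups did not overlap in 16, 8 of which did not pass the adjusted p, and the median size of the log2 fold change was 0.36, against 0.13 over all genes. The stretch also held genes that did not pass the adjusted p, some near 0 and some not. Rexo2, Rbm7 and Fdx1 had log2 fold changes of 0.06, −0.03 and 0.02. Nnmt (−1.11, adjusted p = 0.0597), 2010007H06Rik (−0.92, adjusted p = 0.135) and Cadm1 (0.49, adjusted p = 0.137) separated the groups without overlap. Gm5617, which adjoins Rbm7, rose with a log2 fold change of 0.51 (adjusted p = 0.0434).

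**Figure D3:**
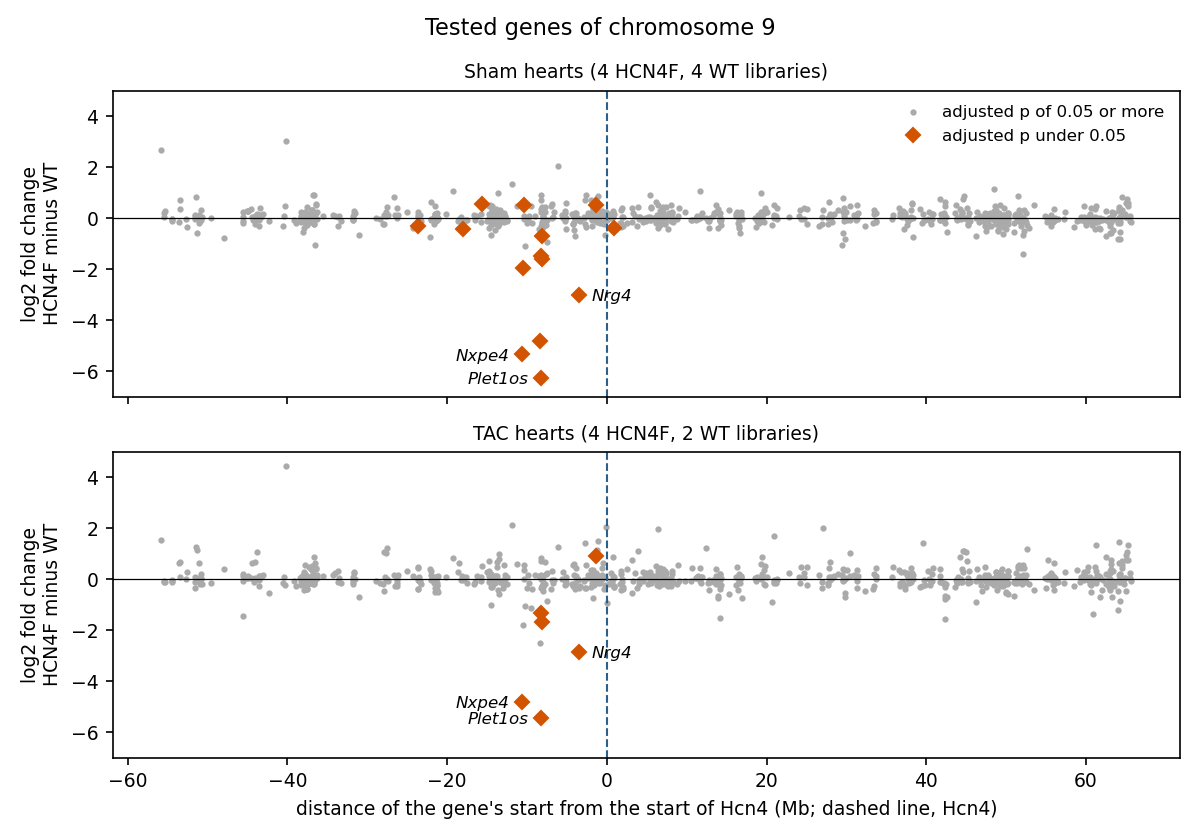
Log2 fold change of HCN4F minus WT (y axis) in Sham hearts (upper panel) and TAC hearts (lower panel) for each tested chromosome 9 gene, against the distance of its start from the start of Hcn4 in megabases (x axis), with genes past the adjusted p in that comparison as orange diamonds. In Sham hearts 13 of the 14 diamonds lie before Hcn4, the lowest being Plet1os (−6.27), Nxpe4 (−5.35) and Plet1 (−4.84), and the first 2 are also the lowest in TAC hearts.

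The 7 chromosome 9 genes that passed the adjusted p without being called changed by smaller amounts. Cryab, which encodes the small heat shock protein alpha-B crystallin and is abundant in cardiomyocytes, stood at 957, 927, 798 and 851 CPM in HCN4F-Sham and 1473, 1345, 1446 and 1476 CPM in WT-Sham, a log2 fold change of −0.70 (SE 0.08, adjusted p = 2.33e-04). Its 4 HCN4F-Sham values all lay below the WT-Sham values. Hspa8, the constitutive Hsc70 chaperone, fell by 0.42 on the log2 scale (adjusted p = 0.0352), Pkm, the muscle pyruvate kinase gene, by 0.40 (adjusted p = 0.0331) and Foxred1, a complex I assembly factor, by 0.32 (adjusted p = 0.0484). Besides Gm5617, Oaf rose by 0.55 (adjusted p = 0.0385) and Ppcdc, an enzyme of coenzyme A synthesis, by 0.51 (adjusted p = 0.0331). Cryab overlaps Hspb2 on the other strand, so their reads cannot be told apart where they overlap.

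The chromosome 9 genes were also lower or higher in the same direction in the 6 TAC libraries, which are other animals. There Nxpe4 stood at 0.0829, 0.329, 0.212 and 0.569 CPM in HCN4F-TAC and 6.98 and 9.73 CPM in the 2 WT-TAC libraries, Pts at 6.05, 5.66, 5.12 and 6.83 CPM in HCN4F-TAC and 14.1 and 15.1 CPM in WT-TAC, and Nrg4 at 0.332, 0.132, 0.141 and 0.407 CPM in HCN4F-TAC and 2.22 and 1.4 CPM in WT-TAC. For each of these 3 genes the groups did not overlap. The HCN4F-TAC against WT-TAC comparison called 11 genes (0.0719% of those tested), 5 of them lower (0.0327%), and these 5 were among the 7, with log2 fold changes of −4.79 for Nxpe4, −5.44 for Plet1os, −1.30 for Pts, −1.67 for Dixdc1 and −2.85 for Nrg4. Plet1 (−2.48, adjusted p = 0.221) and Nxpe2 (−1.80, adjusted p = 0.111) were not called there. Of the 14 chromosome 9 genes past the adjusted p in Sham, 14 had the same sign in TAC, 6 passed the adjusted p again and 13 did not overlap between the TAC groups, a layout of 22.2% of all genes with 4 against 2 libraries. The sixth gene was Ppcdc, with a log2 fold change of 0.89 (adjusted p = 0.0058).

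Outside chromosome 9, 13 of the 25 called genes were higher in HCN4F-Sham, and 6 of these 13 were immediate early genes. Egr1, a zinc-finger transcription factor induced by growth factors and stretch, stood at 109, 206, 202 and 112 CPM in HCN4F-Sham 1 to 4 and at 18.5, 11.4, 9.56 and 10.7 CPM in WT-Sham 1 to 4. Every HCN4F-Sham value lay above every WT-Sham value, with a log2 fold change of 3.65 (SE 0.31, adjusted p = 1.75e-04), or 12.5-fold. The related factor Egr3 stood at 1.51, 1.87, 1.95 and 4.11 CPM in HCN4F-Sham and 0.554, 0.399, 0.421 and 0.359 CPM in WT-Sham, a log2 fold change of 2.47 (SE 0.49, adjusted p = 0.0469). Fos, which dimerizes with Jun proteins to form AP-1, stood at 6.44, 8.81, 14.7 and 4.98 CPM in HCN4F-Sham and 2.33, 2.32, 2.1 and 2.58 CPM in WT-Sham, a log2 fold change of 1.89 (SE 0.35, adjusted p = 0.0411). In HCN4F-Sham its values spread over a wider range than in WT-Sham, but the groups did not overlap.

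Junb, a second AP-1 subunit, stood at 53.3, 60.6, 69.1 and 38.6 CPM in HCN4F-Sham and 22.1, 15.2, 15 and 19.3 CPM in WT-Sham, a log2 fold change of 1.63 (SE 0.21, adjusted p = 0.00377). Ier2, a nuclear protein of the immediate early response, stood at 34.6, 56, 50.8 and 37.2 CPM in HCN4F-Sham and 18.7, 14.8, 13.4 and 14.3 CPM in WT-Sham, a log2 fold change of 1.54 (SE 0.20, adjusted p = 0.00369). Myc, which drives growth genes, stood at 9.98, 6.25, 5.03 and 6.4 CPM in HCN4F-Sham and 2.37, 2.79, 1.68 and 2.81 CPM in WT-Sham, a log2 fold change of 1.51 (SE 0.24, adjusted p = 0.0123). None of these 3 overlapped between the groups, and HCN4F-Sham 1 was the highest library for Myc and not for Junb or Ier2. Below a log2 fold change of 1, Cyr61 (Ccn1), a secreted matricellular protein, stood at 74.2, 77, 70.5 and 89.1 CPM in HCN4F-Sham and 43.4, 41.4, 40 and 40.2 CPM in WT-Sham (log2 fold change 0.91, adjusted p = 0.00349), and Klf10, a TGF-beta-induced factor, had a log2 fold change of 0.82 (adjusted p = 0.0331).

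Of the 36 immediate early genes tested, 8 rose past the adjusted p (against 0.229% of all genes) and none fell, 26 had a log2 fold change above 0 (against 51.1% of all genes) and the median was 0.40, against 0.00 over all genes. In 14 the HCN4F-Sham values lay wholly above the WT-Sham values and in 1 wholly below, against 3.89 and 4.67% of all genes. Summed over the 37 genes listed, the level was 1391 to 1798 CPM in HCN4F-Sham and 1217 to 1399 CPM in WT-Sham, with overlap. Without the 8 genes it was 1085 to 1360 and 1095 to 1301 CPM. Egr2 stood at 5.42, 5.34, 2.64 and 4.77 CPM in HCN4F-Sham and 0.85, 0.508, 0.421 and 0.457 CPM in WT-Sham, a log2 fold change of 3.01 that missed the threshold in edgeR (adjusted p = 0.064) and passed in DESeq2 (adjusted p = 2.71e-06). Gadd45b, a growth arrest and stress gene, had 1.01 (adjusted p = 0.0548, 2.42e-04 in DESeq2) and Apold1, an endothelial early gene, 1.76 (adjusted p = 0.123, 0.00937 in DESeq2). In DESeq2 13 early genes rose (against 1.2% of all genes). This list and those below were written with earlier results of these data known, so an excess over all genes can be partly built in. Other members had values near 0 or below it, such as Jun (−0.18), Jund (0.08), Nr4a1 (0.34), Klf2 (−0.45), Klf4 (−0.40) and Atf3 (−0.77). HCN4F-Sham 1, the library that stood apart in clock genes, was above the WT-Sham range in 16 of the 36 genes, against 21, 20 and 23 for HCN4F-Sham 2, 3 and 4. Among the 28 that did not pass it was 8 against 13, 12 and 15. With HCN4F-Sham 1 as the sole HCN4F-Sham library, a choice made after seeing the data, the log2 fold changes were 3.12 for Egr1, 2.04 for Myc, 1.57 for Junb, 1.46 for Fos, 1.18 for Ier2, 1.79 for Egr3, 0.85 for Cyr61 and 0.58 for Klf10. In each of these 8 genes HCN4F-Sham 1 lay above every WT-Sham library, so a positive sign was all but fixed beforehand. Without HCN4F-Sham 1, 13 immediate early genes passed, and without any other single library 5 to 7 did, with 5 where HCN4F-Sham 2 or WT-Sham 2, 3 or 4 was left out. Egr1, Junb, Ier2 and Myc remained called whichever library was left out, whereas Fos kept its call in 2 of 8 such fits and Egr3 in 1 of 8.

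**Figure D4:**
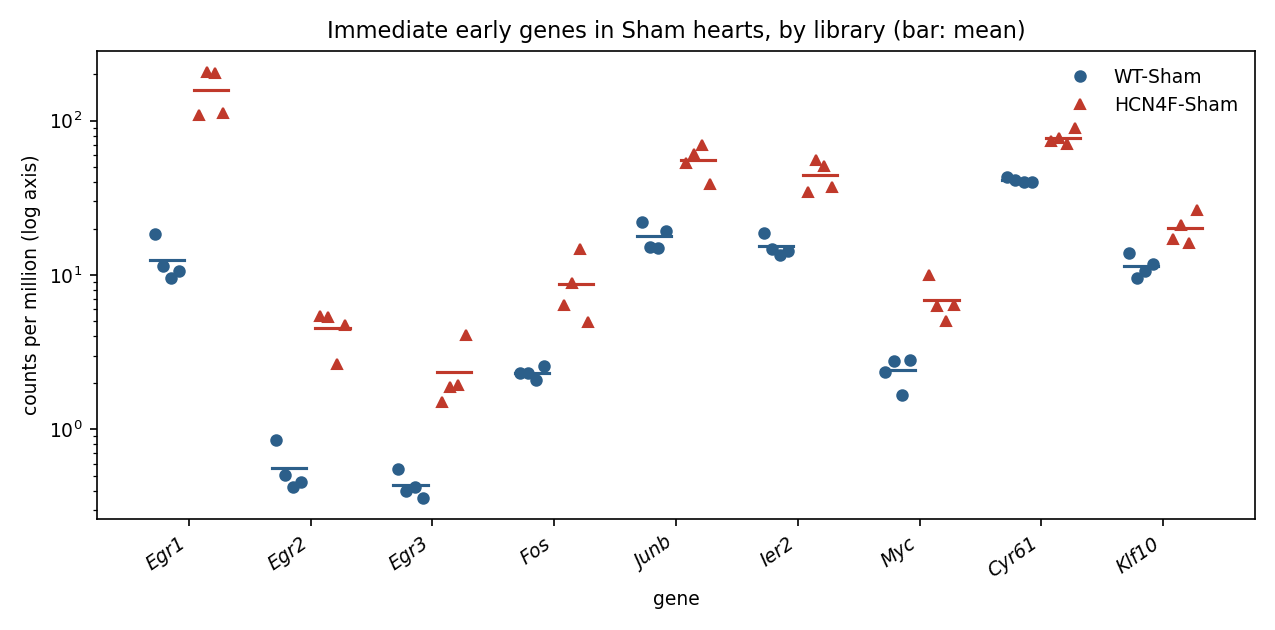
CPM (log axis) of the 8 immediate early genes that passed the adjusted p and of Egr2, which did not, in Sham hearts, with blue circles for the 4 WT-Sham libraries, red triangles for the 4 HCN4F-Sham libraries and bars for the group means. Within a gene the points run from library 1 to 4, and all 4 HCN4F-Sham points lie above all 4 WT-Sham points.

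Promoters of 3 of these 8 genes, Fos, Junb and Cyr61 (Ccn1), were in the reference table and are shown because the 3 rose together. Each is the 250 bases before the transcription start in RefSeq on GRCm38.p6, and capitals mark TGACG on either strand, the core of the site that CREB and ATF factors bind. The Fos promoter is chr12:85473640-85473889 on the plus strand, with matches 129 and 66 bases before the start. The Junb promoter is chr8:84978749-84978998 on the minus strand with a match 106 bases before the start, and the Ccn1 promoter is chr3:145649986-145650235 on the minus strand with a match 58 bases before the start.
Fos: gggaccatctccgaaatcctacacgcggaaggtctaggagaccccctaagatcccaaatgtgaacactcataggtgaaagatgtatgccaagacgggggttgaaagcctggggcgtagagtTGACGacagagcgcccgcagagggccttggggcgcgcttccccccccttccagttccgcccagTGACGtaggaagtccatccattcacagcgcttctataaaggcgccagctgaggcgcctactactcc
Junb: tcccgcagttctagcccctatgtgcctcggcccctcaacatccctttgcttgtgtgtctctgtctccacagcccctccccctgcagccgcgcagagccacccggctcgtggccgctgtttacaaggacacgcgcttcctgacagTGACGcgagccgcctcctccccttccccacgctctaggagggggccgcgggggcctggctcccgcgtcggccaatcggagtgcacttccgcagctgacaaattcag
Ccn1: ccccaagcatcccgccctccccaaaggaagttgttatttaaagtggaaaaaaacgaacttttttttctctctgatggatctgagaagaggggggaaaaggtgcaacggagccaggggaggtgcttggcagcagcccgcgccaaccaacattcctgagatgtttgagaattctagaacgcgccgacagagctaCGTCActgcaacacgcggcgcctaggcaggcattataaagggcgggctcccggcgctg
All 3 held TGACG, against 17.8% of 32851 promoters of the same length. So did 1 of the 2 promoters of Dnajb1, a heat shock gene that fell, and the other 5 of the 8 genes could not be looked up. None of the 3 held a CArG box, the site of serum response factor, in this window. Only 1.47% of promoters did, so its absence from 3 carries no information. Which factors act on these genes was not tested.

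The other called rises outside chromosome 9 did not belong to 1 pathway of the lists. Slc15a2, the peptide transporter PEPT2, stood at 2.41, 5.57, 3.07 and 0.755 CPM in HCN4F-Sham and 0.148, 0.254, 0.229 and 0.196 CPM in WT-Sham, the largest called rise with a log2 fold change of 3.77 (SE 0.55, adjusted p = 0.00811). The groups did not overlap and the call was kept whichever library was left out. Ptger4, the prostaglandin E2 receptor EP4, stood at 4.78, 16.5, 14.5 and 14.3 CPM in HCN4F-Sham and 2.66, 2.18, 2.83 and 3.04 CPM in WT-Sham, a log2 fold change of 2.22 (SE 0.38, adjusted p = 0.0282). Its HCN4F-Sham 1 value was closer to the WT-Sham values than to the other 3, and the call was kept in 1 of the 8 fits that left out a library. Tcf15, a basic helix-loop-helix transcription factor, stood at 58.7, 68, 51.6 and 53.7 CPM in HCN4F-Sham and 26.8, 26.4, 35.5 and 27 CPM in WT-Sham, a log2 fold change of 1.00 (SE 0.12, adjusted p = 2.76e-04). Its groups did not overlap, and it passed the adjusted p in each of the 8 fits but fell under a log2 fold change of 1 in 5.

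A further 3 called rises were of other kinds of gene. Rnf157, an E3 ubiquitin ligase gene, ranged over 4.3 to 4.75 CPM in HCN4F-Sham and 1.11 to 1.86 CPM in WT-Sham (log2 fold change 1.76, adjusted p = 0.0465). Clec7a, the beta-glucan receptor dectin-1 of myeloid cells, ranged over 1.15 to 1.99 and 0.421 to 0.887 CPM (1.35, adjusted p = 0.0214). Samd5 ranged over 1.32 to 1.88 and 0.497 to 0.871 CPM (1.19, adjusted p = 0.0275). Each of the 3 separated the groups without overlap.

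Of the genes that fell outside chromosome 9, Rsrp1, which encodes an arginine- and serine-rich protein, was among the most abundant. It stood at 105, 85.5, 78.7 and 94.9 CPM in HCN4F-Sham and 184, 203, 188 and 218 CPM in WT-Sham, a log2 fold change of −1.12 (SE 0.12, adjusted p = 1.75e-04), and the call was kept whichever library was left out. All 4 HCN4F-Sham values lay below all WT-Sham values. Ip6k3, an inositol hexakisphosphate kinase of muscle, ranged over 3.69 to 6.96 CPM in HCN4F-Sham and 8.1 to 11.8 CPM in WT-Sham (−1.09, adjusted p = 0.0331). Fam84b ranged over 2.33 to 3.77 and 5.48 to 9.83 CPM (−1.14, adjusted p = 0.0469). Tnfrsf25, the death receptor DR3, ranged over 0.94 to 1.51 and 2.06 to 3.86 CPM (−1.18, adjusted p = 0.028). None of these overlapped between groups. Fam222a had a log2 fold change of −1.26 (adjusted p = 0.0355) and the predicted gene Gm43980 of −1.39 (adjusted p = 0.04). The remaining 5 called falls, Gm18258, Gm27023, Lpar3, Sypl2 and Tagap, had means below 1 CPM over the Sham libraries. With Dnajb1, described with the chaperones, these are the 12 called falls outside chromosome 9. Of the calls named outside chromosome 9, those of Egr1, Ier2, Junb, Myc, Rsrp1 and Slc15a2 were kept whichever library was left out, and each of the others was lost in at least 1 such fit.

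Of the heat shock genes, 3 of 26 fell in HCN4F-Sham. Dnajb1, the Hsp40 co-chaperone of Hsp70, stood at 13.5, 15.3, 15.4 and 14.8 CPM in HCN4F-Sham and 20.5, 31.2, 44.6 and 30.1 CPM in WT-Sham, a log2 fold change of −1.10 (SE 0.19, adjusted p = 0.0214). The groups did not overlap, and WT-Sham 3 was the highest library. Its log2 fold change was −0.89 without WT-Sham 3 (adjusted p = 0.0245), and leaving out any of HCN4F-Sham 2, 3 or 4 or WT-Sham 2 or 4 gave an adjusted p between 0.0585 and 0.0659. The 3 genes past the adjusted p were Dnajb1, Cryab and Hspa8 (against 0.242% of all genes), and none rose. Cryab and Hspa8 are also chromosome 9 genes, so Dnajb1 was the only one on another chromosome. A log2 fold change above 0 was seen in 2 of the 26 (against 51.1% of all genes), and their median was −0.33, with 10 lying wholly below WT-Sham and 1 wholly above (against 4.67 and 3.89%). In DESeq2 13 of the 26 fell (against 1.32%). Summed over the list, the level was 7571 to 8410 CPM in HCN4F-Sham and 9135 to 10620 CPM in WT-Sham, without overlap, and without the 3 genes it was 5917 to 6680 and 6737 to 8018 CPM.

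The inducible Hsp70 genes spread most within WT-Sham. Hspa1b stood at 3.84, 2.15, 1.84 and 2.99 CPM in HCN4F-Sham 1 to 4 and at 7.47, 27, 125 and 25.3 CPM in WT-Sham 1 to 4, and Hspa1a at 3.76, 2.37, 2.02 and 4.17 CPM in HCN4F-Sham and 6.39, 15.1, 69.2 and 17.1 CPM in WT-Sham. Neither overlapped between the groups, but WT-Sham 3 was several times above the other WT-Sham libraries, and the log2 fold changes of −4.08 and −3.11 did not pass in edgeR (adjusted p = 0.0871 and 0.124) but did in DESeq2 (adjusted p = 3.12e-05 and 0.00193). Their transcripts are nearly identical and the counting could have split reads between them, so the 2 are not separate measurements. Hspb1, the small chaperone Hsp27, had a log2 fold change of −0.67 (adjusted p = 0.058), Dnaja1, another Hsp40, −0.999 (adjusted p = 0.0985, 0.0113 in DESeq2), and the cardiac small chaperone Hspb7 0.02. HCN4F-Sham 1 lay below the WT-Sham range in 12 of the 26 genes, against 23, 18 and 16 for HCN4F-Sham 2, 3 and 4, and without it 8 heat shock genes fell past the adjusted p. Without WT-Sham 1 it was 5, without HCN4F-Sham 4 or WT-Sham 3 it was 2, and without HCN4F-Sham 2 or 3 or WT-Sham 2 or 4 it was 1.

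**Figure D5:**
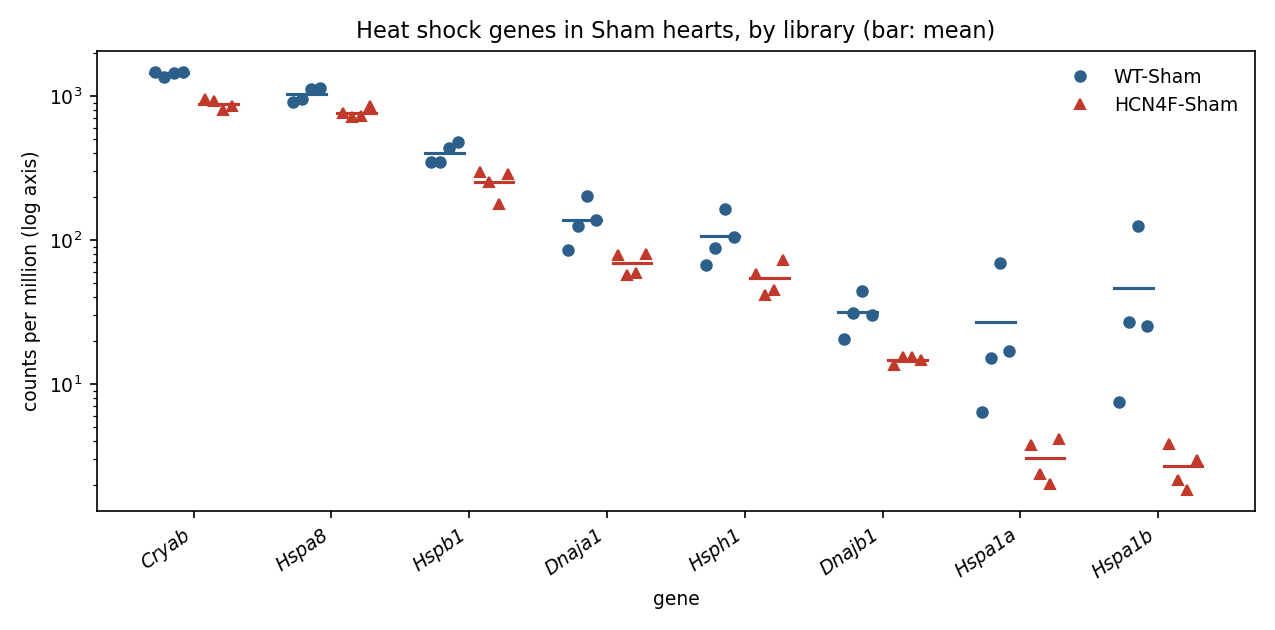
CPM (log axis) of 8 heat shock genes in Sham hearts, with blue circles for the 4 WT-Sham libraries, red triangles for the 4 HCN4F-Sham libraries, in order from 1 to 4, and bars for the group means. Cryab, Hspa8 and Dnajb1 passed the adjusted p, and WT-Sham 3 is far above the other WT-Sham libraries for Hspa1a (69.2 CPM) and Hspa1b (125.4 CPM).

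The 33 genes outside chromosome 9 that passed the adjusted p without being called were 19 higher and 14 lower. Txnip, which binds and inhibits thioredoxin, stood at 852, 605, 667 and 739 CPM in HCN4F-Sham and 499, 482, 318 and 429 CPM in WT-Sham, a log2 fold change of 0.73 (SE 0.13, adjusted p = 0.0251). Vegfa, the angiogenic growth factor, stood at 221, 142, 153 and 168 CPM in HCN4F-Sham and 265, 274, 334 and 272 CPM in WT-Sham, a log2 fold change of −0.74 (SE 0.15, adjusted p = 0.0441). Neither overlapped between groups. Socs2, a suppressor of cytokine and growth hormone signaling, rose by 0.86 (adjusted p = 0.0179), Plk2, a stress-induced polo-like kinase, by 0.92 (adjusted p = 0.0411), Ebf2, a transcription factor, by 0.86 (adjusted p = 0.0202) and Slc6a6, the taurine transporter, by 0.79 (adjusted p = 0.0331). Flcn, folliculin, a regulator of mTORC1 and AMPK signaling, fell by 0.76 on the log2 scale (adjusted p = 0.0186), the extracellular chaperone Clu by 0.40 (adjusted p = 0.0202) and the splicing factors Srsf2 by 0.40 (adjusted p = 0.0235) and Srsf7 by 0.41 (adjusted p = 0.0469).

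Lists that describe the hypertrophied or failing heart held no gene past the adjusted p in edgeR. Of 21 genes of the hypertrophy and fetal program 0 passed the adjusted p in edgeR, 0 had an unadjusted p under 0.05 (against 15.2% of all genes), 0 passed in DESeq2 (against 2.52%) and the median log2 fold change was 0.03. Nppa, the atrial natriuretic peptide gene, stood at 134, 130.5, 69 and 96 CPM in HCN4F-Sham and 109, 80.9, 86.9 and 182 CPM in WT-Sham, overlapping, with a log2 fold change of −0.10 (SE 0.45, adjusted p = 0.938). Nppb, its ventricular relative, had −0.51 (adjusted p = 0.531), Acta1, skeletal alpha-actin, 0.16 (adjusted p = 0.845), Myh7, the fetal myosin heavy chain, 0.37 (adjusted p = 0.657) and the stretch-responsive Ankrd1 0.09 (adjusted p = 0.848). Of 42 extracellular matrix genes 0 passed in edgeR (2 with an unadjusted p under 0.05, 1 in DESeq2, median 0.02). Of 31 ion channel and conduction genes 0 passed in edgeR (7 with an unadjusted p under 0.05, 2 in DESeq2, median −0.11). Of 19 calcium-handling genes it was 0 (3 unadjusted, 0 in DESeq2, median 0.07), and of 21 adrenergic and cAMP signaling genes 0 (3 unadjusted, 1 in DESeq2, median −0.04). The log2 fold change was above 0 in 11 of 21 hypertrophy, 24 of 42 matrix and 9 of 31 ion channel genes (against 51.1% of all genes). It was above 0 in 10 of 19 calcium-handling and 7 of 21 adrenergic genes. Missing the threshold does not show that these levels were equal.

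Of 77 oxidative phosphorylation genes 0 passed in edgeR, 8 had an unadjusted p under 0.05 (against 15.2% of all genes) and 1 passed in DESeq2. Of the 77, 10 had a log2 fold change above 0 and the median was −0.10. Of 33 genes of fatty acid and ketone oxidation 0 passed in edgeR (3 unadjusted, 0 in DESeq2, median −0.04). Of 35 glycolysis and glycogen genes Pkm fell, 11 had an unadjusted p under 0.05 and 2 passed in DESeq2. In 8 the log2 fold change was above 0 (against 51.1%), 6 lay wholly below WT-Sham (against 4.67%) and 0 wholly above, and the median was −0.09. Their summed level of 17760 to 19550 CPM in HCN4F-Sham did not overlap the 20060 to 20810 CPM in WT-Sham, nor did it without Pkm (16720 to 18320 against 18630 to 19360 CPM). Of 23 antioxidant genes Txnip rose (4 unadjusted, 2 in DESeq2, median 0.04). Without Txnip the sums of the listed genes, the untested Slc7a11 included, overlapped, at 2997 to 3323 CPM in HCN4F-Sham and 3000 to 3174 CPM in WT-Sham. Of 12 glucocorticoid-responsive genes 0 passed in edgeR (3 unadjusted, 0 in DESeq2, median −0.17), and of 23 genes of the unfolded protein and integrated stress responses 0 (7 unadjusted, 3 in DESeq2, median −0.13). Over all lists of pathways, 16 of the 522 genes passed (against 0.471% of all genes), 10 higher and 6 lower. The lists were written with earlier results of these data known, so this share is not independent of those results.

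Markers of other cell types were measured beside these groups, and no marker in any list passed the adjusted p in edgeR. Of 10 ventricular cardiomyocyte markers 3 lay wholly below WT-Sham (against 4.67% of all genes), 1 had a log2 fold change above 0 (against 51.1%), 2 had an unadjusted p under 0.05 (against 15.2%) and 1 passed in DESeq2 (against 2.52%), and the sum was lower in HCN4F-Sham without overlap, as given above. Of 5 neutrophil markers 4 lay wholly above WT-Sham (against 3.89% of all genes) and had an unadjusted p under 0.05, and 1 passed in DESeq2. They summed to 1.963 to 2.974 CPM in HCN4F-Sham and 0.5735 to 1.306 CPM in WT-Sham, where Retnlg had 0 counts in all 4 libraries, which allows up to 3 counts in each. Of 8 tested plasma cell markers 6 had a log2 fold change above 0, over a range of −1.41 to 2.54. Of the 8, 4 lay wholly above WT-Sham (against 3.89%), 3 had an unadjusted p under 0.05 and 3 passed in DESeq2. The 14 listed plasma cell markers, tested or not, summed to 22.07 to 48.98 CPM in HCN4F-Sham and 14.23 to 15.22 CPM in WT-Sham. Igha, the IgA heavy chain, stood at 12.4, 19.8, 9.91 and 6.28 CPM in HCN4F-Sham and 2.11, 2.5, 1.91 and 1.73 CPM in WT-Sham (adjusted p = 0.0869, 2.4e-04 in DESeq2). These 3 sums did not overlap between groups, and their part in the genes described above was not tested. The sums of endothelial, fibroblast, mural, macrophage, lymphocyte, Schwann, epicardial, erythroid, adipocyte, sympathetic neuron and skeletal muscle markers overlapped. By sign, 11 of 12 endothelial, 11 of 12 macrophage and 6 of 6 Schwann markers had a log2 fold change above 0 (against 51.1% of all genes), with medians of 0.18, 0.16 and 0.25, and 1, 2 and 0 of them lay wholly above WT-Sham (against 3.89%). Of 29 chemokine and inflammation genes Ptger4 alone passed in edgeR (against 0.471% of all genes) and 3 passed in DESeq2, Serpina3n and Ccl7 beside it. Of the 29, 24 had a log2 fold change above 0 (against 51.1%), 5 had an unadjusted p under 0.05 (against 15.2%), 4 lay wholly above WT-Sham (against 3.89%) and the median was 0.28.

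Outside chromosome 9 the Sham differences were not found again by the test in TAC hearts. Of the 58 such genes past the adjusted p, 44 had the same sign in HCN4F-TAC against WT-TAC and 0 passed there, where 17 genes (0.111%) passed in all. Of these 58, 15 did not overlap in TAC, where 22.2% of all genes did not. Of the 25 called genes 17 had the same sign and 3 did not overlap. Egr1 stood at 149.9, 235, 257 and 227 CPM in HCN4F-TAC and 187 and 124 CPM in WT-TAC, and Slc15a2 at 1.58, 2.3, 1.55 and 1.79 CPM in HCN4F-TAC and 1.36 and 2.29 CPM in WT-TAC. Rsrp1 stood at 81.1, 90.7, 71.3 and 83.5 CPM in HCN4F-TAC and 102 and 66.4 CPM in WT-TAC. The TAC groups overlapped for all 3 genes, and the WT-Sham values given above lay apart from those of every other group. For each gene the WT-TAC values lay beyond all WT-Sham values, on the side of HCN4F-Sham. The TAC comparison rests on 2 WT-TAC libraries, and the difference between the genotype effects was tested as an interaction. In edgeR 0 genes passed the adjusted p of the interaction and 1418 genes (9.27%) had an unadjusted p under 0.05. For Egr1 the genotype effect in TAC less that in Sham was −3.17 on the log2 scale (adjusted p = 0.168), for Slc15a2 −3.81 (adjusted p = 0.223) and for Dnajb1 1.51 (adjusted p = 0.223). With DESeq2 the adjusted p of these 3 were 3.34e-07, 3.35e-04 and 6.35e-04. DESeq2's Wald test of the same term passed 37 genes, and 11 of the 99 genes named by the rule or after their values were seen passed. The interaction uses the Sham libraries in which these genes were selected.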

How the data were processed

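RNA from left ventricular tissue was sequenced on an Illumina platform after polyA selection. The authors deposited raw counts of reads per gene, without normalization, for 49315 genes. The genome build in the submitters' processing notes is GRCm38, and the aligner, the counting program and the use of strand are not given in the sources used here. The study's methods describe 4 samples per group, and 14 libraries were used here, grouped by their labels. Another 2 count columns could be tied to no sample and were left out. The authors' own test was DESeq2's Wald test.

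Genes were kept with filterByExpr, which left 15292, and scaled with TMM in edgeR 4.0.16 (R 4.3.3). The 4 groups were fitted together, with 10 residual degrees of freedom, by the robust quasi-likelihood test and p-values were adjusted by the Benjamini-Hochberg method over the whole table. Called genes had an adjusted p under 0.05 and a log2 fold change beyond 1 in either direction. CPM values per library carry no pseudocount. Gene positions came from GENCODE M21 (99.5% of gene IDs matched) and promoters from RefSeq. The procedure was tested on simulated counts of 15292 genes. Alternatives covered DESeq2 1.42.0, size factors, filters, glmTreat, the replicate number as a block and leaving out each library.

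The comparison, gene lists and named genes were chosen with earlier results of these data known. The rule named the 12 largest called rises and falls with no overlap and a mean of at least 1 CPM, and further list members and genes were chosen after their values were seen. Some single genes are not reported here. Replicates within a group differed by more than counting noise. Depths of 22309914 to 33368926 counts mean that a count of 0 allows up to 3 reads in a library, which covers counting error only.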

Additional observations from a re-analysis of the deposited data

Results flagged for a closer look

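Among 197 groups of 4 Sham libraries looked at for the named genes, 11 (5.584%) held a sample far from the other 3, and chance alone gives about 1 in 20 groups. In HCN4F-Sham 1 the clock gene Npas2 stood at 5.87 CPM against 1.16 to 1.92 CPM in the other 3 HCN4F-Sham libraries. HCN4F-Sham 3 held 7.48 CPM of AI593442, a gene of the chromosome 9 stretch before Hcn4, against 1.78 to 2.33 CPM, 0.94 CPM of Tnfrsf25 against 1.46 to 1.51 CPM and 0.0362 CPM of Plet1, a single count, against 0. HCN4F-Sham 4 held 1245 CPM of Ldhb against 1369 to 1393 CPM.

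In WT-Sham 3, Hspa1a stood at 69.2 CPM against 6.39 to 17.1 CPM in the other WT-Sham libraries, Hspa1b at 125.4 CPM against 7.47 to 27 CPM, Vegfa at 334.1 CPM against 264.7 to 273.8 CPM and Tcf15 at 35.5 CPM against 26.4 to 27 CPM. WT-Sham 4 held 1.86 CPM of Rnf157 against 1.11 to 1.2 CPM, and WT-Sham 2 held 284.3 CPM of Rhob against 232.9 to 234.7 CPM.

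Txnip and Clu had genotype differences of opposite sign in Sham and TAC hearts, with no overlap between the groups in either. For Txnip the effect in TAC less that in Sham was −0.99 on the log2 scale (edgeR adjusted p = 0.2226, DESeq2 adjusted p = 0.00424), and for Clu it was 0.61 (edgeR adjusted p = 0.1676, DESeq2 adjusted p = 3.65e-04). Both genes were selected in the Sham libraries that this term also uses.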

How the results depend on the processing

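The 32 called genes became 60 with DESeq2 on all groups (30 higher, 30 lower, 26 shared), 85 with DESeq2 on the Sham groups (44 and 41), 53 with no filter (21 and 32), 72 with the adjusted p alone and 5 with glmTreat, and numbered 32 with DESeq2 size factors, 41 with the Sham groups alone, 25 with a mean of at least 1 CPM and 42 without robust estimation. The 25 outside chromosome 9 became 52, 76, 44, 58 and 1 under the first 5 of these, the 7 on chromosome 9 became 14 with the adjusted p alone and 4 with glmTreat, and the 16 list genes became 47 with DESeq2. Leaving out each library gave 11 to 92 called genes, 6 to 82 outside chromosome 9, 5 to 10 on it and 7 to 53 list genes. The replicate numbers did not pair the samples (correlations of deviations −0.12, −0.10, 0.16 and −0.01), and the replicate block gave 21 called genes (10 higher, 11 lower) and 15 outside chromosome 9 (10 and 5). No interaction passed in edgeR among the 99 named genes (44 with an unadjusted p under 0.05, smallest adjusted p = 0.168), against 11 with DESeq2. With HCN4F-Sham 1 as the sole HCN4F-Sham library, chosen after seeing the data and assuming that it varies like the other groups, 12 genes were called, 7 of them outside chromosome 9, and 4 list genes passed. The cause of these shifts was not tested.

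Among the named genes and the alternatives run, no gene past the adjusted p changed direction. This adds little, since the groups did not overlap in any of the 72 genes past the adjusted p. Leaving out libraries could then hardly reverse a sign. Leaving out 1 library moved log2 fold changes over −0.29 to 0.077 for Hcn4, −0.24 to 0.21 for Nppa, −0.0026 to 0.17 for Jund, −0.26 to 0.12 for Nr1d1, −0.0074 to 0.076 for Erbb3 and −0.27 to 0.019 for Hcn2. With HCN4F-Sham 1 alone they turned to 0.46 for Hcn4, 0.22 for Nppa, 0.32 for Nppb, −0.015 for Ankrd1, −0.13 for Dusp1, −0.35 for Cxcl12, 0.011 for Pygm, −0.10 for Usp2, 0.32 for Nr1d1, −0.54 for Tef, −0.29 for Per1, 0.021 for Prdx5, 0.060 for Arntl, 0.35 for Npas2, −1.15 for Dbp and −1.06 for Per3.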

Other observations

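Genes of the cell cycle, which are low in adult ventricle, stood mostly higher in HCN4F-Sham without passing the test. The list was written with earlier results of these data known, so an excess over all genes can be partly built in. Its members include Knstrn, Ckap2, Rrm2 and Cdk1, which DESeq2 called on the Sham groups alone. Of 33 genes 0 passed the adjusted p in edgeR, 16 had an unadjusted p under 0.05 (against 15.2% of all genes) and 3 passed in DESeq2 (against 2.52%). A log2 fold change above 0 was seen in 32 (against 51.1%), and the median was 0.48. The summed level of 116.7 to 160.5 CPM in HCN4F-Sham overlapped the 106.3 to 134.6 CPM in WT-Sham. In 9 the HCN4F-Sham values lay wholly above WT-Sham and in 0 wholly below, against 3.89 and 4.67% of all genes. Knstrn, a spindle protein, stood at 1.37 ± 0.48 CPM in HCN4F-Sham and 0.60 ± 0.09 CPM in WT-Sham (SD, n = 4 each, log2 fold change 1.18, edgeR adjusted p = 0.08, DESeq2 adjusted p = 0.019). The replication helicase subunit Mcm5 stood at 5.30 ± 1.12 and 3.02 ± 0.46 CPM (SD, n = 4 each, 0.81, edgeR adjusted p = 0.0871) and the mitotic activator Cdc20 at 3.25 ± 0.89 and 1.93 ± 0.29 CPM (SD, n = 4 each, 0.74, edgeR adjusted p = 0.141). Cenpf, a centromere protein, was the exception, with 13.2 ± 1.61 and 24.9 ± 9.75 CPM (SD, n = 4 each, −0.91, edgeR adjusted p = 0.228).

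Of 30 interferon-stimulated genes 0 passed in edgeR, 8 had an unadjusted p under 0.05 (against 15.2% of all genes), 1 passed in DESeq2 and 25 had a log2 fold change above 0 (against 51.1%). The median was 0.22, 6 lay wholly above WT-Sham (against 3.89%), and the summed levels of 272.8 to 356.8 CPM in HCN4F-Sham and 249.8 to 319.1 CPM in WT-Sham overlapped. Ifi27l2a stood at 8.37 ± 1.06 CPM in HCN4F-Sham and 4.84 ± 0.97 CPM in WT-Sham (SD, n = 4 each, log2 fold change 0.79, edgeR adjusted p = 0.0618), and Iigp1, an interferon-inducible GTPase, at 31.4 ± 3.91 and 21.3 ± 4.33 CPM (SD, n = 4 each, 0.56, edgeR adjusted p = 0.156). Dbh, the noradrenaline-synthesizing enzyme of sympathetic neurons, stood at 1.32, 2.15, 0.904 and 0.574 CPM in HCN4F-Sham 1 to 4 and 2.85, 2.58, 3.25 and 2.45 CPM in WT-Sham 1 to 4, without overlap (log2 fold change −1.21, edgeR adjusted p = 0.0985, DESeq2 adjusted p = 0.0276). Stmn2, the other tested sympathetic neuron marker, had a log2 fold change of 0.23 (edgeR adjusted p = 0.493).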
